A study of Homo sapiens with 4 samples.

Results

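The genes described here are 10 early target genes of transforming growth factor beta (TGF-beta) and bone morphogenetic protein (BMP) signalling: the SMAD feedback genes SKIL, SKI, SMAD6, SMAD7 and PMEPA1, the matricellular genes CCN1 and CCN2, and the inhibitor of DNA binding genes ID1, ID2 and ID3. They were read through all probe sets that the platform annotation maps to exactly 1 of these symbols, which gave 23 of the 54675 probe sets on the array. The set was chosen on a readout, with the LPS minus untreated differences of these data known, so those differences are given as a description, without a test.

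The arrays measured the established human gastric adenocarcinoma line AGS in 2 groups of 2 arrays. The treated cells had received lipopolysaccharide of Helicobacter pylori (LPS), a glycolipid of the outer membrane of this bacterium, at 10 µg/ml in their medium. The untreated cells had received fresh medium alone, and RNA of both was harvested after 8 h. According to the submitters' design note the work was done in 2 independent experiments, and it was meant to find changes in gene expression in response to the glycolipid.

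TGF-beta and BMP ligands bind pairs of serine/threonine kinase receptors, which phosphorylate receptor-activated SMAD proteins. These join SMAD4, enter the nucleus and bind short DNA elements beside other transcription factors. Among the genes that answer earliest are several that restrain the pathway: the inhibitory SMADs act on receptors, SKI and SKIL are nuclear co-repressors, and PMEPA1 is a membrane protein that binds receptor-activated SMADs. BMP signals induce the ID genes in epithelial and many other cells. CCN1 and CCN2 encode secreted proteins of the matrix, and they are also targets of the YAP and TEAD factors.

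The 250 bases before the annotated start of each gene were read from RefSeq (GRCh38.p14), where 8 of the 10 genes matched, with 13 start sites. They are shown for SKIL, SMAD6, SMAD7 (the start farthest upstream), CCN2 and ID3, whose windows hold the SMAD or TEAD elements searched. Capitals mark GTCTAGAC, the palindromic SMAD element, CAGAC, a short SMAD element, GGCGCC, a GC-rich SMAD element, and GGAATG, the TEAD element, each sought on both strands. No marked elements overlap in these windows.
SKIL, chr3:170357465-170357714, plus strand: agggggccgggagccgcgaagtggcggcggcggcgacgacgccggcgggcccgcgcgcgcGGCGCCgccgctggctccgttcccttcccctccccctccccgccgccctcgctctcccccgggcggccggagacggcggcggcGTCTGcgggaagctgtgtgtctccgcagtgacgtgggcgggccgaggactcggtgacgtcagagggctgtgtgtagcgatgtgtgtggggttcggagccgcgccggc
SMAD6, chr15:66701986-66702235, plus strand: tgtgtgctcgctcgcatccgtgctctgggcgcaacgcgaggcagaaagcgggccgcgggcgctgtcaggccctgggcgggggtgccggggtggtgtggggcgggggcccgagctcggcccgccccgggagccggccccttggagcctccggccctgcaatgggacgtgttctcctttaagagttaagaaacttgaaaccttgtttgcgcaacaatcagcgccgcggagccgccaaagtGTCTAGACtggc
SMAD7, chr18:48950966-48951215, minus strand: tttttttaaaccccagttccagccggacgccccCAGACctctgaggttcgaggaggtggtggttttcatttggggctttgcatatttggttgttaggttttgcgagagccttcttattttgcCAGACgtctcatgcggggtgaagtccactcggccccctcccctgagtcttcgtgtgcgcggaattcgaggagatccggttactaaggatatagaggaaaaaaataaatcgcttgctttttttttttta
CCN2, chr6:131951373-131951622, minus strand: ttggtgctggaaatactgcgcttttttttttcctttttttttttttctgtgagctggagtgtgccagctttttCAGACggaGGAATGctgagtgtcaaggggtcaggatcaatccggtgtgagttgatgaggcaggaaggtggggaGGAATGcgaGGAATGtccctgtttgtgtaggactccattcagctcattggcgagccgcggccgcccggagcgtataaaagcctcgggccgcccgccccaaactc
ID3, chr1:23559502-23559751, minus strand: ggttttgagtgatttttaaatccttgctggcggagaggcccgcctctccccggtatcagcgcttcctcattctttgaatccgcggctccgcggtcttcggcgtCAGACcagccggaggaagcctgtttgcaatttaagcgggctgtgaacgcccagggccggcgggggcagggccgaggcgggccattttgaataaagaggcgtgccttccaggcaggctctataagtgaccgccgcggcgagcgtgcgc

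The palindromic element stood in 1 of the 13 windows, that of SMAD6, where it begins 12 bases before the start, and in 0.182% of the 35116 windows of all genes. The TEAD element was found in the CCN2 window alone among the 13, with copies that begin 169, 104 and 95 bases before the start, and in 11.9% of all windows. CAGAC or its complement was common, in 7 of the 13 windows (of SKIL, SMAD7, PMEPA1, CCN2 and ID3) and in 38% of all windows. GGCGCC was in windows of SKIL and PMEPA1 and in 16.4% of all windows. The windows of ID1 and ID2 held none of these letters. A match is a stretch of letters and not a measured binding site.

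On the log2 scale the 23 probe sets had a median LPS minus untreated difference of -0.10, beside 0.02 over all 54613 probe sets that are not controls. Of the 23, 14 lay below 0 and 9 above. CCN1, CCN2, SMAD7, ID1, ID2 and ID3 were below 0 on all of their probe sets, 8 in number. SKIL, SKI, SMAD6 and PMEPA1, with 15 probe sets, had values on both sides of 0. Both LPS-treated arrays lay under both untreated arrays on 11 of the 23 probe sets, where 11.9% of all probe sets did so, and above both on 5, where 17.6% of all did so. The contrast was known when the genes were chosen, so nothing is read from these counts.

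In the limma fit over all 54613 probe sets, 0 were called higher (0%) and 0 lower (0%) at an adjusted p under 0.05, and the smallest adjusted p was 1. At an unadjusted p under 0.05 there were 1419 probe sets (2.6%). With 2 arrays a group, an exact permutation test of 1 probe set cannot give a p under 0.33. The median of the 23 was -0.19 without LPS array 1 and -0.08 without LPS array 2, and it was -0.06 without probe sets that can share signal with related transcripts (names ending in _x_at or _s_at). Without LPS array 2, the remaining LPS array lay above both untreated arrays on 9 of the 23 probe sets, where 34.5% of all probe sets did so, and under both on 13, where 33.3% of all did so. The measurements are of RNA from whole cultures, in which fewer cells of a kind and less RNA per cell cannot be told apart.

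The arrays also differed by replicate number. The largest axis of variation among the 4 arrays (first principal component, 60.83% of the variance) set those numbered 1 apart from those numbered 2. Control probe sets for 18S ribosomal RNA averaged 9.89 and 7.98 log2 units on LPS arrays 1 and 2, against 10.07 and 8.12 on untreated arrays 1 and 2. The spiked poly-A transcripts were at 7.72 and 7.16 on the LPS arrays, against 8.17 and 7.23 on the untreated ones. The median difference of the 23 probe sets was -0.09 for the first replicate number and -0.17 for number 2. LPS array 2 was the lowest of the 4 arrays on all 8 probe sets of the genes that lay below 0 throughout, which were picked for lower LPS means. It was the lowest on 23.6% of all probe sets. The part of these array differences in the results was not tested. Of the 8 epithelial marker probe sets, 7 were at or above the median level of all probe sets. KRT18 was at 14.40 and 14.45 in LPS-treated cells, against 14.37 and 14.39 in untreated cells. EPCAM was at 13.55 and 13.43 with LPS, against 13.60 and 13.52 without. The median difference of the 8 was 0.02, from -0.17 (CDH17) to 0.06 (CLDN4). Of the 9 leukocyte marker probe sets, 1 was at or above the median level of all probe sets (6.33), as were 1 of 9 endothelial and 7 of 18 fibroblast marker probe sets. Leukocyte marker probe sets averaged 4.81 and 4.91 on the LPS arrays, against 4.90 and 4.93 on the untreated arrays, and endothelial ones 5.48 and 5.55, against 5.39 and 5.49. The fibroblast marker probe sets averaged 5.66 and 5.73 on the LPS arrays, against 5.63 and 5.67 on the untreated arrays.

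**Figure D1:**
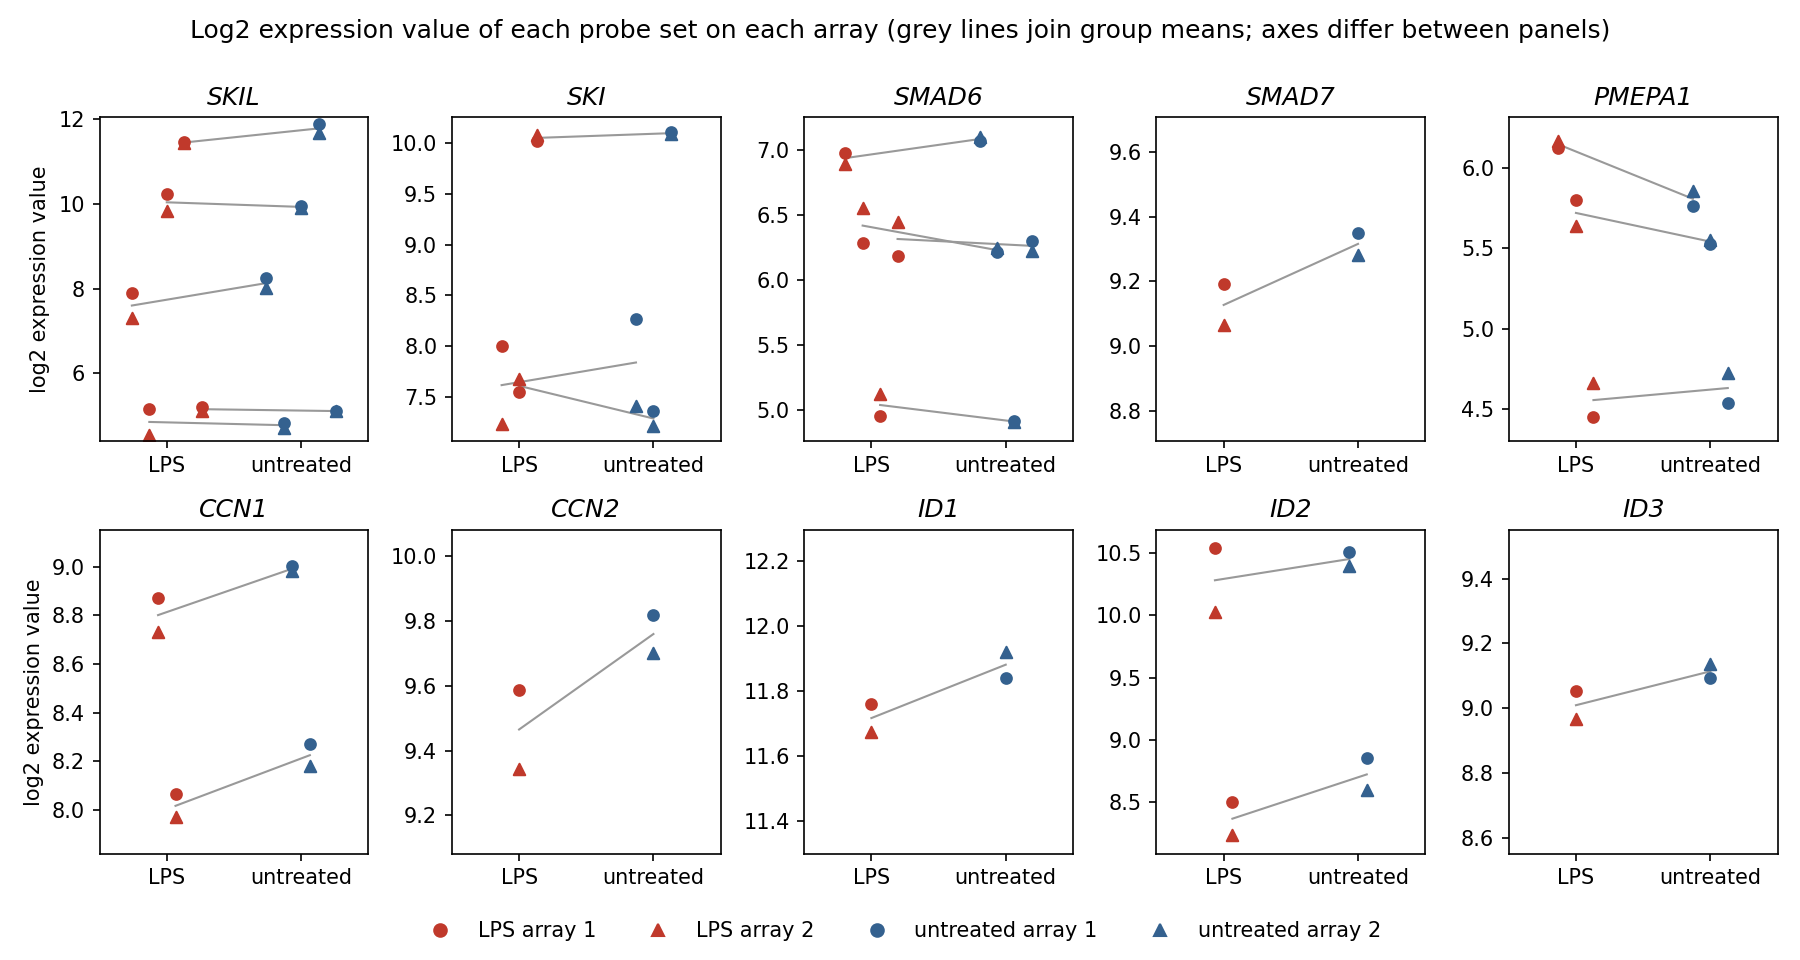
Log2 expression value (vertical axis) of each probe set in LPS-treated and untreated cells, 1 panel a gene; circles are the arrays numbered 1, triangles those numbered 2, and grey lines join group means. CCN2 lies at 9.59 and 9.34 with LPS, under 9.82 and 9.70 without, while PMEPA1 probe set 217875_s_at lies at 6.13 and 6.17, above 5.76 and 5.86.

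SKIL, which encodes the SMAD co-repressor SnoN, was measured by 5 probe sets whose differences did not share a sign. On 225227_at it was at 11.48 and 11.43 in LPS-treated cells, against 11.90 and 11.67 in untreated cells. The 4 arrays did not overlap by group, and the difference was -0.33 ± 0.10 (SE of the fit, n = 2 each), a ratio of 0.79. On 206675_s_at the values were 7.89 and 7.31 with LPS, against 8.24 and 8.02 without, which is the lowest difference of the set at -0.53 ± 0.21, a ratio of 0.69. Here the gap between the LPS arrays, of 0.59, was larger than the difference.

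The other SKIL probe sets had differences a little above 0. The bright 217591_at read 10.25 and 9.84 in LPS-treated cells, against 9.96 and 9.91 in untreated cells, so that the untreated values lay between the LPS ones. Its difference of 0.11 ± 0.15 was 0.31 without LPS array 2 and -0.10 without LPS array 1. The dim 215889_at and 232379_at differed by 0.08 ± 0.20 and 0.05 ± 0.10. The mean over all 5 probe sets differed by -0.13, with single values from -0.53 to 0.11.

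SKI, the related co-repressor gene, was nearly level on the probe set that read it brightest. On 229265_at it was at 10.02 and 10.08 in LPS-treated cells, against 10.11 and 10.09 in untreated cells, a difference of -0.05 ± 0.10. The groups did not overlap, but LPS array 2 and untreated array 2 were 0.01 apart. On 213755_s_at SKI was higher with LPS, at 7.54 and 7.67, against 7.36 and 7.21 in untreated cells, a difference of 0.32 ± 0.13. That was the second highest difference among the 23.

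The third SKI probe set, 204270_at, followed the replicate number. It read 8.00 and 7.23 on LPS arrays 1 and 2, against 8.27 and 7.41 on untreated arrays 1 and 2. The gaps between arrays of a group, 0.77 with LPS and 0.86 without, exceeded the group difference of -0.22 ± 0.35. Within the same number the differences were -0.27 and -0.17. The difference ran from -0.66 to 0.21 when 1 array was left out.

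SMAD7 encodes the inhibitory SMAD that blocks TGF-beta and BMP receptors and brings ubiquitin ligases to them. Its only probe set, 204790_at, was at 9.19 and 9.06 in LPS-treated cells, against 9.35 and 9.28 in untreated cells. The LPS-treated arrays were both under the untreated ones, with differences of -0.16 and -0.22 in the pairs numbered 1 and 2. The difference of means was -0.19 ± 0.11, a ratio of 0.88, and it stayed between -0.25 and -0.13 when 1 array was left out.

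SMAD6, the inhibitory SMAD that acts mainly on BMP signals, had 4 probe sets that were split, 1 of them above the median level of all probe sets. The brightest, 207069_s_at, was at 6.98 and 6.90 in LPS-treated cells, against 7.07 and 7.10 in untreated cells, a difference of -0.15 ± 0.12. The remaining probe sets lay under the median level of all probe sets and above 0 in their differences. On 209886_s_at SMAD6 was at 6.28 and 6.56 with LPS, against 6.22 and 6.24 without, a difference of 0.19 ± 0.13. On 209887_at the difference was 0.13 ± 0.10 and on 213565_s_at it was 0.05 ± 0.13, the last of these at -0.12 in the pair numbered 1 and 0.22 in the pair numbered 2. On these 3 probe sets LPS array 2 was above LPS array 1 by 0.17 to 0.27.

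PMEPA1 was the gene with the highest difference of the set. On 217875_s_at it was at 6.13 and 6.17 in LPS-treated cells, against 5.76 and 5.86 in untreated cells. The groups lay apart, with a difference of 0.34 ± 0.11, a ratio of 1.26, that was 0.37 and 0.31 within the numbered pairs. On 222449_at PMEPA1 was at 5.80 and 5.64 with LPS, against 5.53 and 5.56 without, a difference of 0.18 ± 0.11. On 222450_at, at 4.45 and 4.66 with LPS, against 4.53 and 4.72 without, the groups overlapped and the difference was -0.08 ± 0.12. All PMEPA1 probe sets were under the median level of all probe sets.

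**Figure D2:**
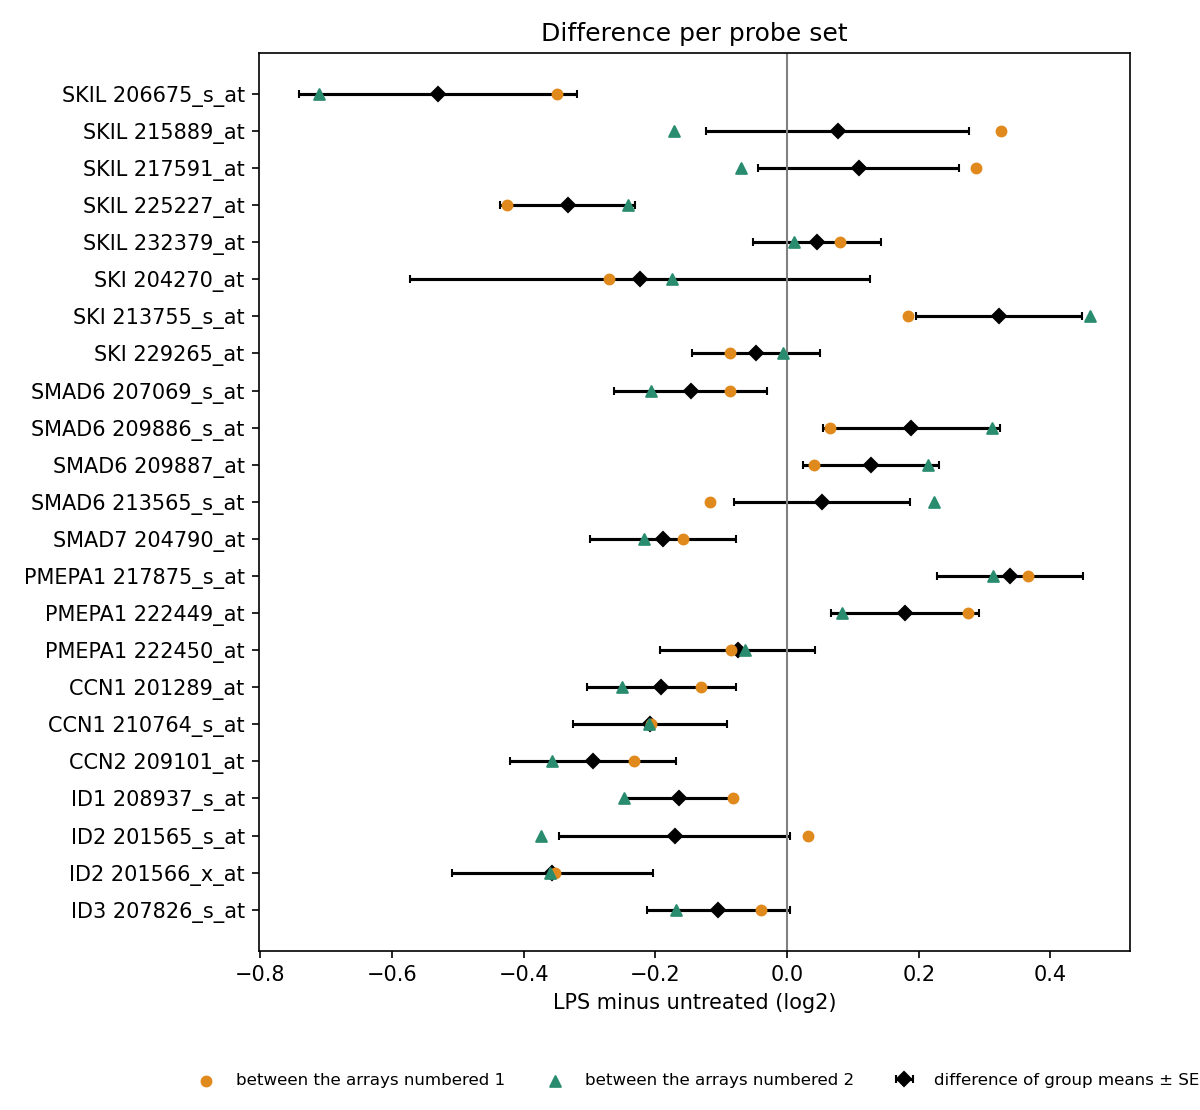
LPS minus untreated difference (log2, horizontal axis) of each probe set; diamonds with bars are differences of group means ± SE of the limma fit, circles the difference in the pair of arrays numbered 1 and triangles that in the pair numbered 2. The CCN1, CCN2 and SMAD7 markers all lie left of 0, while SKIL runs from -0.53 to 0.11 over its 5 probe sets.

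CCN2, which encodes connective tissue growth factor, had the lowest difference among the genes with a single probe set. On 209101_at it was at 9.59 and 9.34 in LPS-treated cells, against 9.82 and 9.70 in untreated cells. Every LPS-treated value was under every untreated one, and the difference was -0.29 ± 0.13, a ratio of 0.82. It ran from -0.42 to -0.17 when 1 array was left out. Its window is the one above with 3 TEAD elements and CAGAC.

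CCN1, encoding the related secreted protein CYR61, gave close differences on both of its probe sets. On 201289_at it was at 8.87 and 8.73 in LPS-treated cells, against 9.00 and 8.98 in untreated cells, a difference of -0.19 ± 0.11. On 210764_s_at it was at 8.06 and 7.97 with LPS, against 8.27 and 8.18 without, a difference of -0.21 ± 0.12. The groups did not overlap on either probe set, and the ratios were 0.88 and 0.87.

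The ID genes encode helix-loop-helix proteins that lack a DNA-binding region and hold bHLH transcription factors away from DNA. ID1 (208937_s_at) was bright, at 11.76 and 11.67 in LPS-treated cells, against 11.84 and 11.92 in untreated cells. Its groups did not overlap, and the difference of -0.16 ± 0.08, a ratio of 0.89, was -0.08 in the pair numbered 1 and -0.25 in the pair numbered 2. ID3 (207826_s_at) was at 9.05 and 8.97 with LPS, against 9.09 and 9.14 without. The nearest ID3 values of the groups were 0.04 apart, and the difference was -0.10 ± 0.11.

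ID2 was measured by 2 probe sets with differing spread. On 201566_x_at it was at 8.50 and 8.23 in LPS-treated cells, against 8.85 and 8.59 in untreated cells, a difference of -0.36 ± 0.15 that was -0.35 and -0.36 within the numbered pairs. On 201565_s_at it was at 10.54 and 10.03 with LPS, against 10.51 and 10.40 without. LPS array 1 was the highest of the 4 here and LPS array 2 the lowest, and the difference was -0.17 ± 0.18. Without LPS array 2 it was 0.085. Both names end in a suffix for probes that can share signal with related transcripts.

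**Figure D3:**
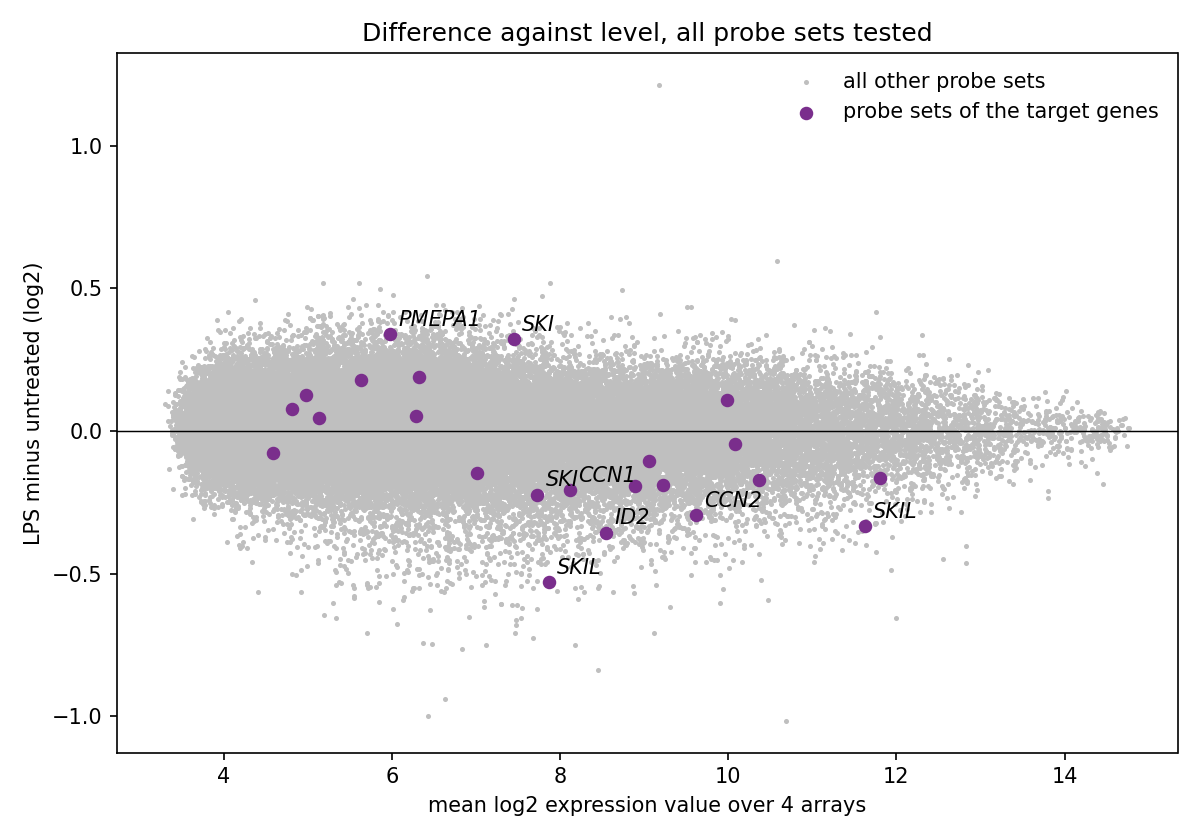
LPS minus untreated difference (log2, vertical axis) against mean log2 expression value over 4 arrays (horizontal axis) for all 54613 probe sets tested; large points are the 23 probe sets of the target genes, with some named. The bright ones lie mostly below 0 and the dim ones mostly above.

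The 23 probe sets were divided by brightness, as a description of differences already known when the genes were chosen. Of the 15 at or above the median level of all probe sets, 13 had a difference below 0 and their median was -0.19, beside 0.01 over all bright probe sets, of which 47.3% lay below 0. Of the 8 below the median level, from SKIL, SMAD6 and PMEPA1, 1 had a difference below 0 and 7 above. Among all dim probe sets 41.5% lay below 0. The median of the 8 was 0.10, beside 0.02 over all dim probe sets. On 11 of the 23 probe sets the difference was smaller than the larger gap between arrays of 1 group. The median gap between the LPS arrays was 0.17 over the 23 probe sets, beside 0.14 over all, and that between the untreated arrays was 0.08, beside 0.11 over all.

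The rest of the pathway was read through 9 lists with 80 genes, of which 75 had at least 1 probe set with a single symbol, 222 probe sets in all. The other 5 were not analysed here. None of the 222 passed the adjusted limma test in either direction. At an unadjusted p under 0.05, 5 were lower with LPS and 2 higher, where the whole table had 1.31% lower and 1.29% higher. The median difference of the 222 was 0.003, beside 0.02 over all.

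The list of ligands, taken from the wider TGF-beta family, had a median of 0.05 over 34 probe sets. Its extremes were GDF11 217498_at (-0.34) and GDF15 229868_s_at (0.34). On their brightest probe sets GDF11 and GDF15 differed by -0.03 and 0.11. TGFB1, a ligand of the TGF-beta branch, was at 9.08 and 9.51 in LPS-treated cells, against 9.30 and 9.55 in untreated cells, with overlap and a difference of -0.13 ± 0.17. Receptors had a median of -0.03 over 32 probe sets, between BMPR2 238516_at at -0.38 and ENG 201809_s_at at 0.25. The brightest probe sets of BMPR2 and ENG differed by -0.19 and 0.09. The type I receptor gene TGFBR1 differed by -0.09 ± 0.09 and the type II receptor gene TGFBR2 by 0.14 ± 0.11, the first without overlap below and the second without overlap above. The list of latent TGF-beta storage and activation genes had a median of 0.01 over 18 probe sets, from ITGB8 at -0.34 to FURIN at 0.20.

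The transducers SMAD1 to SMAD5 and SMAD9 had a median of -0.05 over 25 probe sets, from -0.37 for SMAD4 to 0.18 for SMAD1. SMAD2, which carries TGF-beta and activin signals, was at 9.85 and 10.05 in LPS-treated cells, against 10.32 and 10.15 in untreated cells, a difference of -0.28 ± 0.12 without overlap. SMAD3, its partner, differed by 0.01 ± 0.13, and SMAD4, the shared partner of both branches, by -0.24 ± 0.14 on its brightest probe set with arrays that overlapped. Inhibitors and ubiquitin ligases had a median of -0.002 over 31 probe sets, from PPM1A 229027_at at -0.44 to FST at 0.15. On its brightest probe set PPM1A differed by -0.03 with overlap. The ubiquitin ligase genes SMURF1 and SMURF2 differed by 0.01 ± 0.12 and 0.02 ± 0.15. BAMBI, a decoy receptor that BMP and TGF-beta induce, was bright at 13.34 and 13.32 with LPS, against 13.20 and 13.29 without, a difference of 0.08 ± 0.06.

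Further target genes of the pathway had a median of -0.04 over 21 probe sets. Their differences ran from -0.22 (TSC22D1 235315_at) to 0.15 (CDKN1A). TSC22D1 differed by 0.12 ± 0.07 on its brightest probe set, where both LPS-treated arrays lay above both untreated arrays. KLF10, an early TGF-beta response gene, was at 12.15 and 12.09 in LPS-treated cells, against 12.29 and 12.11 in untreated cells, a difference of -0.08 ± 0.09 with overlap. JUNB differed by -0.06 ± 0.11. The list of ID4 and the bHLH partners had a median of 0.05 over 31 probe sets, from TCF12 238041_at at -0.29 to TCF3 209151_x_at at 0.25. TCF3 differed by 0.03 on its brightest probe set. ID4 was dim, at 5.01 and 5.04 with LPS, against 5.23 and 5.07 without, a difference of -0.13 ± 0.10, and TCF12 differed by -0.13 ± 0.10 on its brightest probe set.

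CCN3 to CCN6 had a median of 0.01 over 9 probe sets, all under the median level, with extremes of -0.10 and 0.25 that both belong to CCN4. With only the brightest probe set of each of these 4 genes, the median was 0.16, beside 0.02 over all genes. Of those 4 differences, 3 lay above 0 and 1 below. The YAP and TEAD genes had a median of -0.02 over 21 probe sets. On the brightest probe set of each of these 8 genes, 4 differences lay below 0 and 4 above. ANKRD1, a YAP target like CCN1 and CCN2, was at 6.50 and 6.47 in LPS-treated cells, against 7.13 and 6.59 in untreated cells. The LPS values lay under both untreated ones, which were 0.54 apart, and the difference of -0.37 ± 0.19 was the lowest of that list. YAP1 itself differed by -0.13 ± 0.08 without overlap. WWTR1, which encodes the YAP relative TAZ, had the highest difference of the list at 0.35 on 202132_at, and -0.29 on its brightest probe set.

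**Figure D4:**
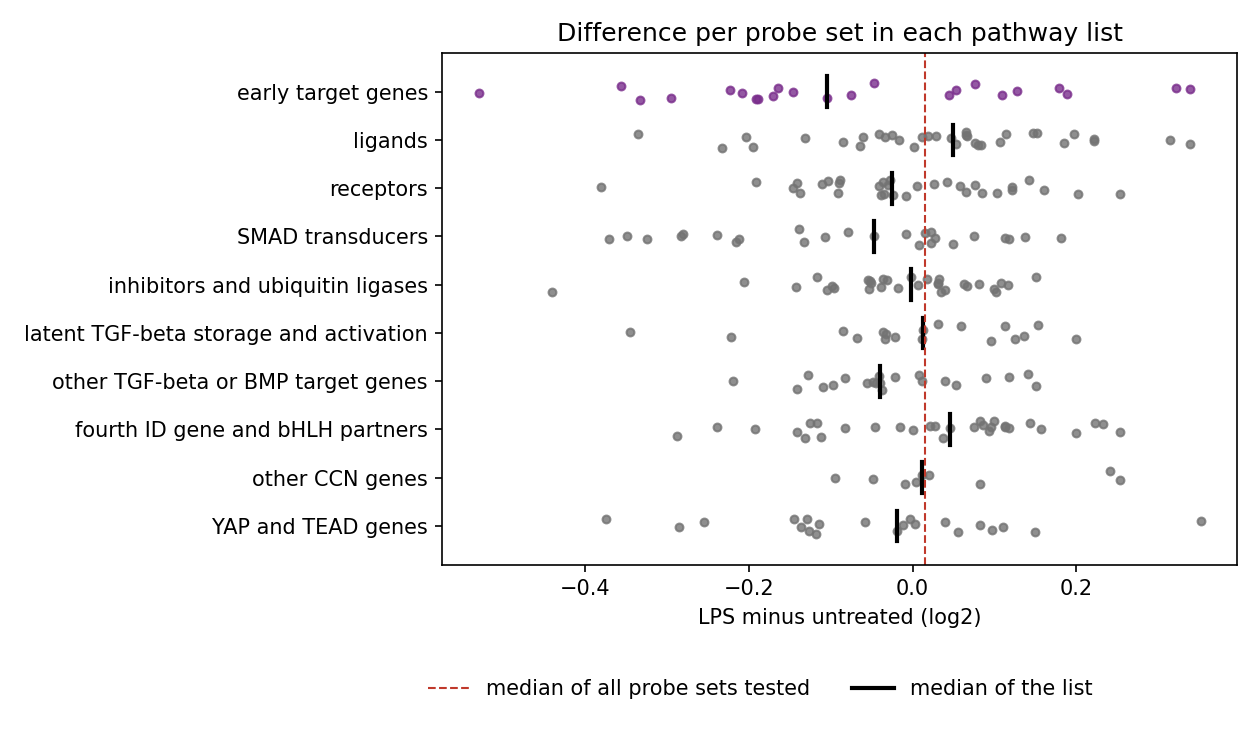
LPS minus untreated difference (log2, horizontal axis) of each probe set (points) in the early target genes and in each of 9 pathway lists, with the list's median as a black bar and the median of all 54613 probe sets as a dashed line. The median of the early target genes is -0.10, and those of the lists lie between -0.05 and 0.05.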

How the data were processed

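The deposited table held the authors' log2 expression values, 1 per probe set and array, already normalized between arrays; MAS5 and RMA are named, per the submitters' processing notes, with no role or version, and settings are not given in the sources used here. Arrays had medians of 6.31 to 6.36. The values were used as deposited. Of the annotated probe sets, 41097 had 1 symbol and 1801 several, and 62 control probe sets were left out.

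All 54613 other probe sets were fitted in R 4.3.3 with the package limma 3.58.1 (functions lmFit and eBayes, two-sided, with a trend of the variance on intensity and group as the only term) and adjusted by Benjamini-Hochberg, threshold 0.05. The SE of a difference is that of this fit, which has no replicate term, so it includes differences between arrays of different number. Precision is limited by the number of arrays. The fit was also run on simulated data with planted changes larger than any difference of the target genes. That run therefore does not cover differences of the size described here. Named were all members, each list's median and range, and a fixed set of pathway genes on their brightest probe set. Where an extreme was not on a gene's brightest probe set, the difference on the brightest was added. Members and lists were chosen with earlier results of these data known. Promoter windows were searched in Python 3.11.15. Figures were drawn with matplotlib 3.10.9. The alternatives were quantile normalization, an expression filter, leaving out _x_at and _s_at probe sets, a variance without trend, 1 probe set or the mean of probe sets per gene, a replicate block, and each array left out.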

Additional observations from a re-analysis of the deposited data

How the results depend on the processing

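Under all 11 alternatives the limma fit called 0 probe sets or genes higher and 0 lower, over the whole table and over the pathway lists. The median difference of the target genes was -0.188 at or above the median level (15 probe sets) and -0.168 with the brightest probe set of each gene, and -0.189 to -0.076 when 1 array was left out. The count of probe sets or genes above both untreated arrays was 5 of 23 with all arrays (17.6% of all features), 1 of 15 at or above the median level (15.8%), 2 of 12 without _x_at and _s_at probe sets (17.4%), 1 of 10 with the brightest probe set (17.9%), and 1 of 10 with the mean of probe sets (17.8%). The count below both was 11 of 23 (11.9% of all features), 11 of 15 (13.3%), 5 of 12 (12.3%), 8 of 10 (11.7%) and 5 of 10 (10.4%) in the same settings. With 1 array left out, which leaves fewer arrays to separate, 5 to 9 of 23 lay above (30.4% to 43.1% of all) and 12 to 15 below (25.3% to 33.3% of all). The sign of the difference held in every setting that kept the probe set for 17 of the 23 probe sets. Of the other 6, all turned only when 1 array was left out. The expression filter, the suffix filter, the variance without trend and the replicate block leave a probe set's difference unchanged by construction. Where groups do not overlap, as on the 11 and 5 probe sets above, leaving out 1 array cannot turn the sign. Nothing is therefore read from the 17. With the replicate block, 0 probe sets were called (smallest adjusted p = 0.685, limma), and 3579 had an unadjusted p under 0.05, against 1419 without it. The labels do not say that a number marks a shared experiment, and the deviations of same-numbered arrays correlated at 0.54 across probe sets.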

Other observations

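A further probe set, 213931_at, is annotated to both ID2 and ID2B and was therefore not counted among the 23. It read 6.10 and 5.55 in LPS-treated cells, against 5.98 and 5.68 in untreated cells, a difference of -0.01 ± 0.21 (SE of the fit, n = 2 each) with overlapping groups. As on the ID2 probe set 201565_s_at, LPS array 1 was the highest of the 4 arrays and LPS array 2 the lowest.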
